A study of Homo sapiens with 6 samples.

Results

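The genes described here are 42 genes of inflammatory signalling, comprising cytokines and chemokines, their receptors, the subunits of the transcription factor NF-kB, and the genes that restrain NF-kB and cytokine signals. They were taken by symbol from a table of 25445 rows, and each of the 42 symbols was found in 1 row. The libraries came from MHCC-97H, an established human liver cancer cell line, so all of them share 1 genetic background, and no other line or animal was sequenced. The Control group was given solvent and the 6j group 10 μM of 6j, a compound derived from sophoridine, which is an alkaloid of plants, both for 16 h, with 3 libraries in each group numbered 1 to 3. The sources used here do not say whether these came from separate cultures, so every p-value measures only the spread between these libraries. The study asked which genes respond to 6j in liver cancer cells.

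NF-kB is a family of dimeric transcription factors that are held in the cytoplasm by inhibitor proteins until signals such as TNF or interleukin 1 trigger the destruction of the inhibitor. The freed dimers switch on cytokine and chemokine genes and, at the same time, the genes of their own inhibitors, which closes a feedback loop. Cytokines of the interleukin 6 family act through the shared receptor chain gp130 and the JAK kinases, and SOCS proteins limit that signal. In liver cancer, tumour cells can make several of these ligands themselves.

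The total counts were 31533403 to 38018349 per library, and each library held fewer rows with a count of 1 than with a count of 2, so rounded estimates may be among the deposited counts. Levels are given as CPM, the usual scaling of counts to library size, here after TMM normalization, on which scale 3 counts, taken as the floor of detection, are worth 0.0781 to 0.0952 CPM. The markers of hepatocytes and liver cancer were weak for the labelled cell type. Of 12, only HNF4A, KRT8 and KRT18 had a mean above 1 CPM, and TTR, GPC3 and EPCAM were at 0 in every library. The summed level was 905 to 1110 CPM in Control and 706 to 825 CPM in 6j. Nearly all of this sum came from the keratin genes KRT8 (means of 604.8 CPM in Control and 403.5 CPM in 6j) and KRT18 (429.8 and 344.5 CPM). The lower sum in 6j is therefore that of these keratin genes. Of 10 leukocyte markers, PTPRC, CD3E and MS4A1 were at 0, 2 had a mean above 1 CPM, and the sum was 46.0 to 78.7 CPM in Control and 55.6 to 73.6 CPM in 6j. The sum of 4 endothelial markers, of which 1 had a mean above 1 CPM, was 2.18 to 6.25 CPM in Control and 1.86 to 4.03 CPM in 6j. The sum of 6 fibroblast markers, of which COL1A2 was at 0 and 3 had a mean above 1 CPM, was 269 to 329 CPM in Control and 248 to 315 CPM in 6j. In bulk RNA, fewer cells of a type and less RNA per cell cannot be told apart.

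Most of the genes were expressed. Of the 42, 36 passed the filter on low counts (about 0.277 CPM in 3 libraries), and 30 of these had a mean above 1 CPM in both groups. CXCL1, CXCL5 and CSF2 had 0 counts in every library, which allows up to 0.0952 CPM in a single library. IL1B, ICAM1 and CCL20 were counted but not tested. The IL1B counts were 18, 6 and 0 in Control and 7, 21 and 8 in 6j, ICAM1 had 0, 2 and 4 against 4, 7 and 0, and CCL20 had 4 counts in Control replicate 2 and 0 elsewhere. IL1B encodes interleukin 1 beta, ICAM1 a leukocyte adhesion molecule, and CCL20 a chemokine, and all 3 are textbook NF-kB targets.

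Per kb of exon, the scale on which genes can be set against each other, the highest Control levels were those of the inhibitor gene NFKBIA (28.2 CPM per kb) and the LIF receptor gene LIFR (26.7). SOCS3, IL18, TNFAIP3, RELA, IL6ST and NFKB2 followed at 17.3, 15.8, 15.6, 15.5, 15.5 and 14.97 CPM per kb. The ranges of mean ± SD of neighbours in this order overlapped, except those of LIFR and SOCS3. The classical inflammatory ligands were far lower, with 1.80 CPM per kb for IL6, 1.02 for CXCL8, 0.283 for TNF and 0.140 for IL1A. IL21R had the lowest Control level among the tested genes, 0.0219 CPM per kb, and stood at 0.408 CPM per kb in 6j.

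**Figure D1:**
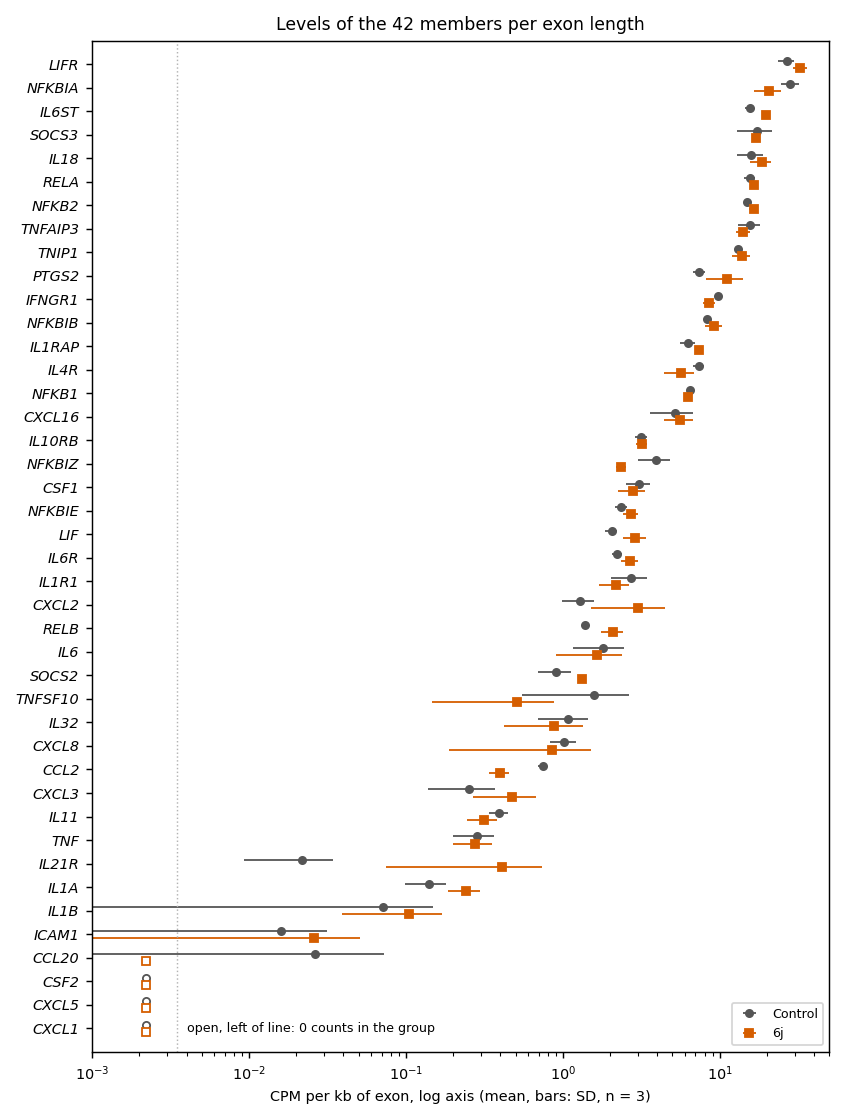
Mean level of each of the 42 genes in Control (circles) and 6j (squares) in CPM per kb of exon on a log axis, with bars of 1 SD over 3 libraries that run to the edge where the SD exceeds the mean. Signalling genes such as LIFR and NFKBIA lie near 30 CPM per kb in Control, most ligands lie near or under 2, and open marks left of the dotted line are groups with 0 counts.

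A gene was called when its Benjamini-Hochberg adjusted p over all rows was under 0.05 and its fold change exceeded 1.5 in edgeR's quasi-likelihood test. IL21R rose and NFKBIZ fell under this rule, which is 2 of 36 genes tested (5.56%). Over all 15957 rows tested, 3.60% were called, 2.48% higher and 1.12% lower in 6j, so the share among the 36 was near the background. The adjusted p alone passed for 3 of the 36 (8.33%), the third being IL6ST, against 9.16% of all rows. Without a threshold, 20 genes had a positive and 16 a negative log2 fold change. The median was 0.08 with quartiles of −0.21 and 0.30, while over all rows it was 0.01 with quartiles of −0.21 and 0.23. The group ranges did not overlap for 15 of the 36 (41.7%), 12 higher and 3 lower in 6j, against 31.7% of all rows.

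Libraries that share a replicate number tended to lie on the same side of their group means, so each gene was also fitted with the number as a block, a term that compares 6j with Control within each number. In this fit 4 of the 36 were called (11.1%), namely IL21R and CXCL2 higher and NFKBIZ and TNFSF10 lower, against 6.47% of all rows. The adjusted p alone passed for 13 (36.1%), 9 higher and 4 lower, against 26.9% of all rows. DESeq2 without the block called 4 of 39 genes (10.3%), IL21R, CXCL2 and PTGS2 higher and NFKBIZ lower, against 3.51% of its 22091 rows. No filter on low counts was set for this fit, and rows without a DESeq2 adjusted p could not be called. Among the 39 these were IL1A, IL1B, TNF, CCL20 and ICAM1, so the DESeq2 shares are not on the scale of the edgeR shares.

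**Figure D2:**
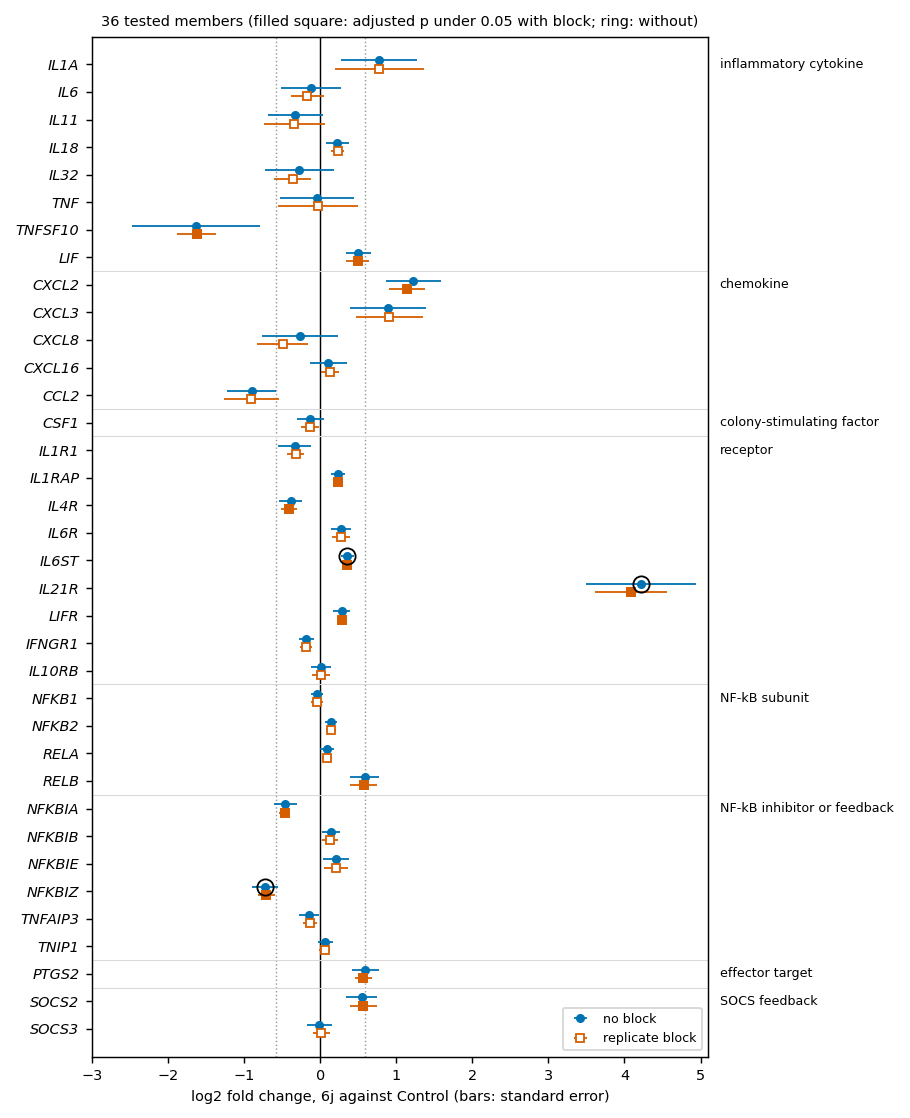
Log2 fold change of 6j against Control in edgeR for the 36 genes tested, without the replicate block (circles) and with it (squares), grouped by role, with bars of 1 standard error and dotted lines at a fold change of 1.5. Rings mark the 3 genes with an adjusted p under 0.05 without the block and filled squares the 13 with it. IL21R stands at 4.22, away from the other genes, which lie between −1.63 and 1.22 without the block.

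Among the 9 inflammatory cytokines, 8 were tested. None was called without the block in edgeR, 1 had an unadjusted p under 0.05, and DESeq2 called 0. The block fit called TNFSF10 alone. Their median log2 fold change was −0.08, with 3 positive and 5 negative.

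TNFSF10 (chromosome 3) encodes TRAIL, a ligand that triggers apoptosis through death receptors. Its levels were 7.11, 8.09 and 1.38 CPM in Control and 3.05, 1.75 and 0.524 CPM in 6j. Replicate 3 was the lowest library of each group, and the groups overlapped because Control replicate 3 lay under every 6j library but its own partner. The log2 fold change was −1.63 with a standard error of 0.84 and an adjusted p of 0.292 without the block. Within replicate numbers 1, 2 and 3 the log2 differences were −1.21, −2.18 and −1.31, and with the block TNFSF10 fell by 1.63 with a standard error of 0.26 and an adjusted p of 0.00089. The call therefore rests on the comparison within numbers.

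LIF encodes a cytokine of the interleukin 6 family. LIF levels were 8.84, 7.39 and 8.16 CPM in Control and 9.60, 11.6 and 13.4 CPM in 6j. Every 6j library lay above every Control library, and the log2 fold change was 0.50 with a standard error of 0.16 and an adjusted p of 0.0900. With the block the adjusted p was 0.0296, under the fold threshold.

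IL1A, which encodes interleukin 1 alpha, was close to the filter level, with 0.372, 0.317 and 0.201 CPM in Control and 0.416, 0.476 and 0.641 CPM in 6j. Its groups did not overlap, and its log2 fold change of 0.77 had a standard error of 0.50 and an adjusted p of 0.370 (0.373 with the block).

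The remaining cytokines did not pass the adjusted p in either fit. IL6, the main inducer of the hepatic acute phase response, had 3.53, 5.17 and 2.50 CPM in Control and 3.64, 4.84 and 1.78 CPM in 6j. Replicate 2 was highest and replicate 3 lowest in both groups, the ranges overlapped, and the log2 fold change was −0.12 (with 0.39 as its standard error and an adjusted p of 0.887, and 0.619 with the block). TNF, the prototype activator of NF-kB, had 0.531, 0.317 and 0.575 CPM in Control and 0.547, 0.317 and 0.524 CPM in 6j. The TNF ranges nearly coincided, and the log2 fold change was −0.04 (with 0.48 as its standard error and an adjusted p of 0.971, and 0.976 with the block). IL18, the ligand with the highest level per kb, had a log2 fold change of 0.22 with an adjusted p of 0.407 (0.0582 with the block), and IL11 and IL32 had −0.33 and −0.28. IL6 shares exon positions with STEAP1B on the opposite strand, and the sources used here do not say whether strand was counted.

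Of the 8 chemokines, 5 were tested. In edgeR without the block 0 were called and 2 had an unadjusted p under 0.05, whereas CXCL2 was called by DESeq2, with the block, and when no filter on low counts was used. Chemokines attract leukocytes, and CXCL1, CXCL2, CXCL3, CXCL5 and CXCL8 draw neutrophils in particular. These 5 genes lie together in 359 kb of chromosome 4, from 73740506 to 74099293 (GENCODE version 29, GRCh38).

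All 5 carry the 9-base NF-kB site GGAATTTCC just upstream of their RefSeq start, so the sequences of this cluster are shown beside its levels. By the GENCODE positions, CXCL5, CXCL3 and CXCL2 start further upstream, and their sites lie inside the gene. Distances below are from the RefSeq start. The windows are from RefSeq (GRCh38.p14), 41 bases long, 5′ to 3′ on the strand of the gene, with the site in capitals.
CXCL8: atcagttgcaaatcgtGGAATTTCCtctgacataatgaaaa
CXCL1: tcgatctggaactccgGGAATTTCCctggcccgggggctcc
CXCL5: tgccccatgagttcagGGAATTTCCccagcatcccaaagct
CXCL3: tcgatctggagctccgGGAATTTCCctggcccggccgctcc
CXCL2: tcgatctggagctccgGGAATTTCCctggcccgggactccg
They lie at chr4:73740462-73740502 (+), chr4:73869299-73869339 (+), chr4:73998743-73998783 (−), chr4:74038743-74038783 (−) and chr4:74099248-74099288 (−), and the site begins 91, 78, 90, 78 and 77 bases before the start. The motif was chosen after the values had been seen and was searched on both strands in the 300 bases from 250 before to 50 after each start. It occurred in 162 of 35116 promoters (0.461%) and in 10 of the 34 genes with an entry, the other 5 being ICAM1, NFKB1, NFKBIA, NFKBIB and NFKBIZ. The kB consensus GGGRNYYYCC (R is A or G, Y is C or T, N is any base) occurred in 7.73% of promoters and in 16 of the 34. It is longer and begins with GGG, so it does not cover every GGAATTTCC. CXCL8 and ICAM1 held GGAATTTCC without it. IL18, LIF, CXCL16, CCL2, CSF1, RELB, NFKBIE and SOCS2 had no entry.

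With the same 9 bases at a like distance from the RefSeq start, the 5 genes had unlike levels. CXCL2 had 1.75, 2.44 and 1.61 CPM in Control and 2.97, 7.09 and 3.46 CPM in 6j. All 6j libraries lay above all Control libraries, and 6j replicate 2 stood above the other 6j libraries. The CXCL2 log2 fold change was 1.22 with a standard error of 0.36 and an adjusted p of 0.0677. With the block it rose by 1.14 (standard error 0.24, adjusted p 0.00475), and DESeq2 gave an adjusted p of 0.0152. With 1 library left out and no block, CXCL2 was called in 1 of 6 fits, that without 6j replicate 1, and without 6j replicate 2 its log2 fold change was 0.74 with an adjusted p of 0.247.

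CXCL8, which encodes interleukin 8, had 1.91, 2.28 and 2.76 CPM in Control and 0.807, 1.35 and 3.64 CPM in 6j. 6j replicates 1 and 2 lay under every Control library and 6j replicate 3 above them all, so the groups overlapped. Its log2 fold change was −0.27 (with 0.50 as its standard error and an adjusted p of 0.788, and 0.322 with the block). CXCL3 had a log2 fold change of 0.89 (with 0.50 as its standard error and an adjusted p of 0.298), and CXCL1 and CXCL5 were at 0. Of the 50-base stretches in the CXCL2 transcripts, 12.5% also occur in transcripts of other genes, mostly CXCL3 and CXCL1, against 6.01% for CXCL3 and 4.81% for CXCL1, so part of the reads could have been split between these genes.

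The other chemokines differ in their targets. CCL2, which recruits monocytes, had 1.46, 1.59 and 1.38 CPM in Control and 0.677, 0.899 and 0.786 CPM in 6j. Every 6j library lay under every Control library, with a log2 fold change of −0.90 and a standard error of 0.33, but the adjusted p was 0.116 (0.0856 with the block). CXCL16, a membrane-bound chemokine that shares exon positions with MED11 on the opposite strand, had a log2 fold change of 0.11 (adjusted p 0.824). The colony-stimulating factor gene CSF1, which encodes a macrophage growth factor, had −0.13 (adjusted p 0.692).

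**Figure D3:**
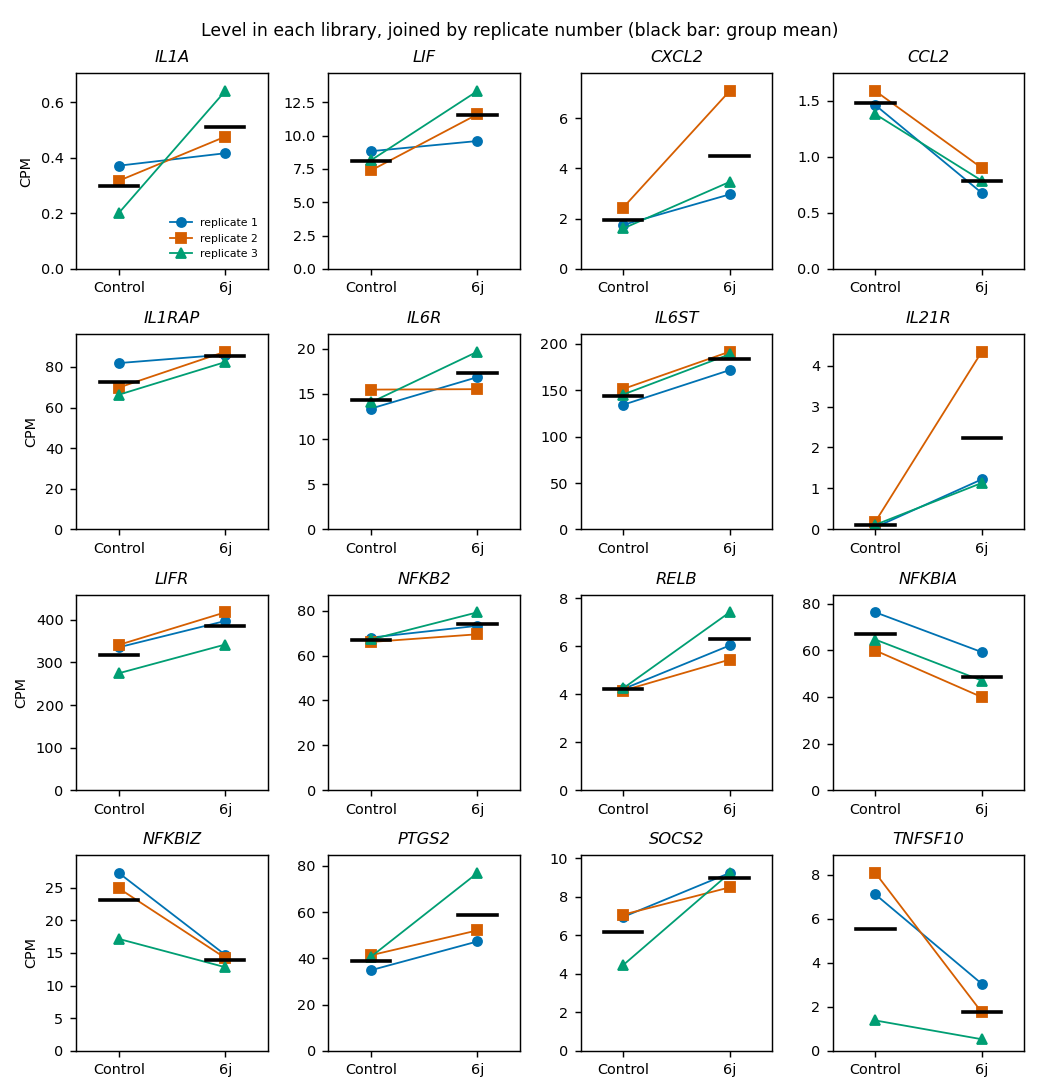
Levels in CPM in the 15 genes whose groups do not overlap and in TNFSF10, with each library as a point, lines joining equal replicate numbers, a black bar at the group mean and axes that start at 0. IL21R, IL6ST and LIFR are higher in all 6j libraries, NFKBIZ and NFKBIA are lower in all of them, and TNFSF10 is lower in 6j within each number although its groups overlap.

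All 9 receptor genes were tested, and 6 had a positive log2 fold change, with a median of 0.23. IL21R was called, and IL6ST passed the adjusted p alone. With the block 5 of the 9 passed the adjusted p, against 26.9% of all rows tested. These were IL21R, IL6ST, LIFR and IL1RAP higher and IL4R lower.

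IL21R (chromosome 16, 27402162 to 27452042) encodes the receptor chain that binds interleukin 21 and is known mainly from lymphocytes. Its counts were 2, 6 and 4 in Control and 47, 164 and 39 in 6j, or 0.0531, 0.190 and 0.115 CPM against 1.22, 4.34 and 1.14 CPM. The lowest 6j library was thus well above the highest Control library, and 6j replicate 2 stood above the other 6j libraries. The log2 fold change was 4.22 with a standard error of 0.72 and an adjusted p of 0.0120, an 18.6-fold difference, and with the block it was 4.09 with a standard error of 0.47 and an adjusted p of 0.000128. IL21R was the only tested member with all Control libraries under the filter level, so it passed the filter through the 6j group and a difference was built into its being tested. It was not called without Control replicate 1 (adjusted p 0.0681) or without 6j replicate 2 (3.29, adjusted p 0.0586). The ligand gene IL21 had 0 counts in every library. IL2RG, the partner chain of the receptor, had 0, 23 and 65 counts in Control and 0, 0 and 83 in 6j and shares exons with AL590764.2. JAK1 and JAK3, the kinases bound to these chains, had mean levels of 119.8 and 3.17 CPM in Control and 154.3 and 3.24 CPM in 6j, and the JAK1 log2 fold change of 0.37 had an adjusted p of 0.0514 (0.00358 with the block). These 4 genes were named after their values had been seen.

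The 300 bases around the RefSeq start of IL21R are shown because it had the largest difference of the genes tested and was the only gene of the 34 with the composite site TGATGNAAN, which C/EBP and ATF family factors are known to bind. This motif too was chosen after the values had been seen, and 3.61% of all promoters hold it on either strand. The 1 match among the 34 is not above that share. The match is in capitals and begins 118 bases before the start.
IL21R: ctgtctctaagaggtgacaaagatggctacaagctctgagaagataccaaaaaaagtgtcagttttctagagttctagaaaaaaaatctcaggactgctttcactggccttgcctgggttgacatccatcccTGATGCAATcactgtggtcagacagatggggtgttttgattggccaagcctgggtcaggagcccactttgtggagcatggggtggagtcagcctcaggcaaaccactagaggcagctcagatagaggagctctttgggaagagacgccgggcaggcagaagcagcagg
The window is chr16:27427021-27427320 (+, GRCh38.p14), and the RefSeq start lies 25.1 kb inside the GENCODE gene, so a transcript from the GENCODE start would use another promoter. Binding at this sequence was not measured.

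IL4R, which encodes the receptor chain for interleukin 4 and interleukin 13, ends 37.4 kb before IL21R on the same strand of chromosome 16. Its levels were 47.4, 43.1 and 40.3 CPM in Control and 40.4, 26.0 and 33.3 CPM in 6j. The ranges touched, since 6j replicate 1 was just above Control replicate 3, and the log2 fold change was −0.39 (with 0.15 as its standard error and an adjusted p of 0.144). With the block the adjusted p was 0.0132 and the fold was under the threshold. The neighbouring receptor genes thus had log2 fold changes of opposite sign.

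The gp130 receptors are the shared chain IL6ST, which is gp130 itself, with IL6R for interleukin 6 and LIFR for LIF. IL6ST levels were 134, 152 and 146 CPM in Control and 172, 192 and 189 CPM in 6j. The lowest 6j library exceeded the highest Control library, and the differences within numbers 1, 2 and 3 were nearly equal at 0.36, 0.34 and 0.38 on the log2 scale. IL6ST rose by 0.36 (standard error 0.08, adjusted p 0.0318), a 1.28-fold difference under the fold threshold, with an adjusted p of 0.00129 with the block. When 1 library was left out, its adjusted p was 0.0268 to 0.154, and it passed only without 6j replicate 1.

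LIFR had 336, 341 and 275 CPM in Control and 398, 418 and 342 CPM in 6j. The groups were apart by the narrow gap between Control replicate 2 and 6j replicate 3, and replicate 3 was lowest in both. Its log2 fold change was 0.28 with a standard error of 0.11 and an adjusted p of 0.151, and with the block the adjusted p was 0.00297. IL6R had 13.4, 15.48 and 14.1 CPM in Control and 16.9, 15.53 and 19.7 CPM in 6j. Its groups all but met at replicate 2 without overlapping, and its log2 fold change of 0.28 had an adjusted p of 0.216 (0.111 with the block). OSMR, the receptor chain for oncostatin M that pairs with gp130, was named after its values were seen and had mean levels of 168 and 230 CPM (log2 fold change 0.45, adjusted p 0.0569, and 0.00918 with the block). It shares exon positions with RICTOR on the opposite strand.

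The interleukin 1 receptor chains had log2 fold changes of opposite sign. IL1RAP, the accessory chain that completes the signalling receptor, had 81.9, 69.8 and 66.3 CPM in Control and 86.0, 87.5 and 82.4 CPM in 6j. All 6j libraries were above all Control libraries by a small margin, and the log2 fold change was 0.23 (with 0.09 as its standard error and an adjusted p of 0.158, and 0.0226 with the block). IL1R1, the ligand-binding chain, had a log2 fold change of −0.34 (with 0.22 as its standard error and an adjusted p of 0.379, and 0.0576 with the block). IFNGR1, a chain of the interferon gamma receptor, had −0.18 (adjusted p 0.291). IL10RB, a chain shared by interleukin 10 family receptors, had 0.01 (adjusted p 0.972), and 36.3% of its 50-base stretches also occur in the overlapping gene AP000295.1, so its count is uncertain.

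The NF-kB subunit genes were all tested, and in edgeR without the block 0 of 4 were called, 1 had an unadjusted p under 0.05, and DESeq2 called 0. RELB, the partner of the p52 subunit in the noncanonical pathway, had 4.22, 4.16 and 4.25 CPM in Control and 6.04, 5.45 and 7.42 CPM in 6j. The Control libraries were nearly equal and all 6j libraries lay above them. The RELB log2 fold change was 0.58 with a standard error of 0.19 and an adjusted p of 0.0886, and with the block the adjusted p was 0.0335 with the fold just under 1.5. NFKB2, which encodes the p100 precursor of p52, had 68.1, 66.1 and 67.2 CPM in Control and 73.3, 69.5 and 79.3 CPM in 6j. Its groups did not overlap either, with a log2 fold change of 0.14 (with 0.08 as its standard error and an adjusted p of 0.301, and 0.121 with the block). RELA and NFKB1, the p65 and p50 subunits of the canonical pathway, had log2 fold changes of 0.09 and −0.05 with adjusted p-values of 0.573 and 0.778.

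Of the 6 genes that restrain or shape NF-kB activity, 3 had a positive and 3 a negative log2 fold change. NFKBIZ was called, and NFKBIA passed the adjusted p with the block. NFKBIZ encodes the nuclear protein IkB-zeta, which binds NF-kB on DNA and is needed for a set of secondary response genes. NFKBIA encodes IkB-alpha, the inhibitor that holds NF-kB in the cytoplasm. Both promoters hold GGAATTTCC, as 10 of the 34 do, and are shown because these were the feedback genes that passed the adjusted p in a fit. The NFKBIA match is on the other strand and so reads GGAAATTCC.
NFKBIZ: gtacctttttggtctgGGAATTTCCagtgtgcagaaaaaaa
NFKBIA: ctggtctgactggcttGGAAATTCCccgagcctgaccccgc
The windows are chr3:101827752-101827792 (+) and chr14:35404806-35404846 (−) of GRCh38.p14, and the sites begin 222 and 81 bases before the start.

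NFKBIZ had 27.3, 24.9 and 17.2 CPM in Control and 14.7, 14.2 and 12.8 CPM in 6j. The 6j libraries were close together and all under the lowest Control library, which was replicate 3. NFKBIZ fell by 0.73 on the log2 scale (standard error 0.17, adjusted p 0.0321), to 0.602 of the Control level, with adjusted p-values of 0.00106 with the block and 0.00163 in DESeq2. With 1 library left out, the log2 fold change stayed between −0.91 and −0.59 while the adjusted p was 0.0189 to 0.135, and it was called in 1 of 6 fits, that without Control replicate 3.

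NFKBIA had 76.4, 60.0 and 64.6 CPM in Control and 59.3, 39.9 and 47.0 CPM in 6j. The highest 6j library lay just under the lowest Control library, and the log2 differences within numbers were −0.37, −0.59 and −0.46. The log2 fold change was −0.46 with a standard error of 0.15 and an adjusted p of 0.0942, and with the block NFKBIA fell by 0.47 (standard error 0.07, adjusted p 0.000517), under the fold threshold. DESeq2 gave an adjusted p of 0.027. With 1 library left out, edgeR called it in 1 of 6 fits, that without 6j replicate 1 (log2 fold change −0.62, adjusted p 0.0273), and it was −0.33 without 6j replicate 2 (adjusted p 0.271) and −0.35 without Control replicate 1 (adjusted p 0.296).

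The other feedback genes had smaller differences. TNFAIP3, which encodes the ubiquitin-editing enzyme A20, had a log2 fold change of −0.15 (adjusted p 0.521), and its partner TNIP1 had 0.07 (adjusted p 0.726). The inhibitor genes NFKBIB and NFKBIE had 0.14 and 0.20 with adjusted p-values of 0.526 and 0.509, and NFKBIB shares exon positions with SIRT2 on the opposite strand. Among the genes with GGAATTTCC in the window, log2 fold changes in the fit without the block thus ran from −0.73 for NFKBIZ to 1.22 for CXCL2.

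PTGS2, which encodes the prostaglandin synthase COX-2 and is a common effector target of NF-kB, had 34.9, 41.3 and 40.7 CPM in Control and 47.3, 52.1 and 76.9 CPM in 6j. Every 6j library was above every Control library, and 6j replicate 3 was highest. Its log2 fold change was 0.59 with a standard error of 0.18 and an adjusted p of 0.0757, and with the block it was 0.57 with an adjusted p of 0.00712, under the fold threshold. DESeq2 called it with an adjusted p of 0.00903. With 1 library left out, edgeR called it in 1 of 6 fits, that without 6j replicate 1 (adjusted p 0.0387). Without 6j replicate 3, its highest library, the log2 fold change was 0.35 with an adjusted p of 0.0886, and the adjusted p reached 0.241 without Control replicate 1.

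SOCS2 and SOCS3 encode inhibitors of JAK-STAT signals and are themselves induced by cytokines. SOCS2 had 6.95, 7.07 and 4.45 CPM in Control and 9.24, 8.49 and 9.23 CPM in 6j. All 6j libraries were above all Control libraries, and the log2 fold change was 0.55 (with 0.20 as its standard error and an adjusted p of 0.125, and 0.0327 with the block). SOCS3, the main brake on gp130 signals, had overlapping groups and a log2 fold change of −0.01 (adjusted p 0.979).

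**Figure D4:**
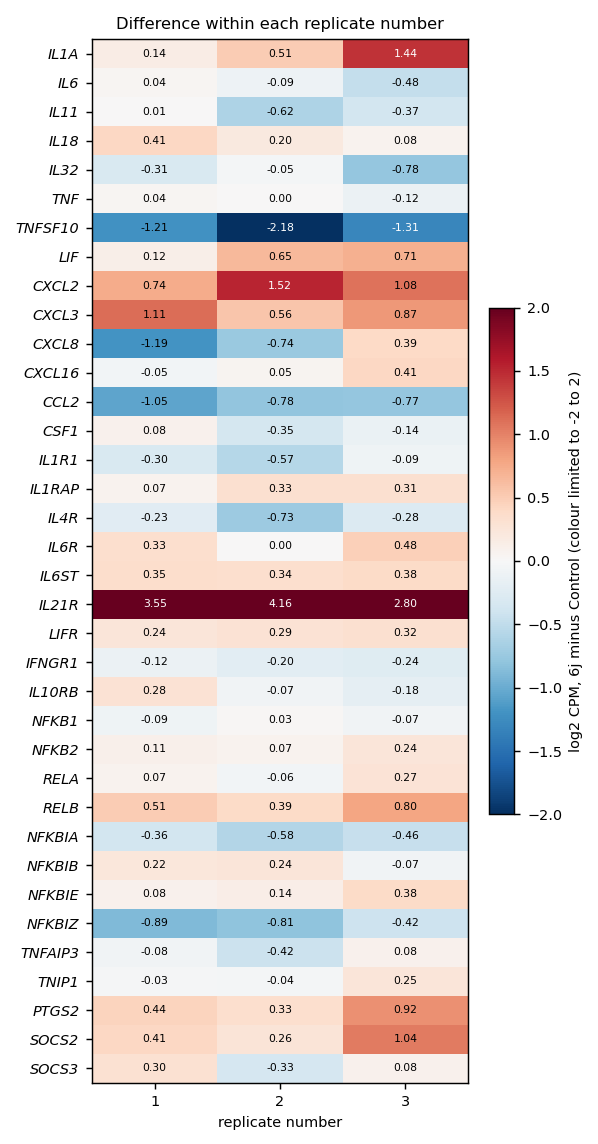
Log2 difference of 6j minus Control within each replicate number for the 36 genes tested, as coloured cells with the value printed. Of the 36, 23 have the same sign in all 3 numbers (63.9%, against 57.0% of all rows tested), 15 higher and 8 lower in 6j, and IL21R has the largest differences at 3.55, 4.16 and 2.80.

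Within replicate numbers, 23 of the 36 genes had a log2 difference of the same sign in all 3 numbers (63.9%), 15 positive and 8 negative, against 57.0% of all rows tested. IL21R had 3.55, 4.16 and 2.80, CXCL2 had 0.74, 1.52 and 1.08, and NFKBIZ had −0.89, −0.81 and −0.42. The size of the IL21R and CXCL2 differences was thus greatest in number 2, and that of NFKBIZ in number 1. What a number marks is not stated in the sources used here, and whether it is a day, a passage or a preparation was not tested.

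Other genes of these pathways were counted from lists written from general knowledge, 198 genes in all. Of the 145 tested, 9 were called, 7 higher and 2 lower, and 19 with the block, 11 higher and 8 lower. Their median log2 fold change was −0.02. Leaving out Control replicate 1 or 6j replicate 2 left 1 called gene in each case. The background for these counts and for the list counts below is the share over all rows tested. That share was 3.60% without the block and 6.47% with it.

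Of 37 other NF-kB signalling genes tested, 3 were called, all higher, in the fits without and with the block. IKBKE, a kinase gene of the pathway that was named after its values were seen, was lower with an adjusted p of 0.0467 and a log2 fold change of −0.57, under the fold threshold. RBCK1, a subunit of the linear ubiquitin ligase that promotes NF-kB activation, rose by 0.94 on the log2 scale (adjusted p 0.0234). The other subunit genes, also named after their values were seen, did not rise. RNF31, which shares exons with AL136295.5, had a log2 fold change of −0.48 (adjusted p 0.0579, and 0.0012 with the block). SHARPIN had −0.04 (adjusted p 0.818). CYLD, a deubiquitinase that restrains the pathway, rose by 0.61 (adjusted p 0.0388), as did TOLLIP, an inhibitor of Toll-like and interleukin 1 receptor signalling (0.61, adjusted p 0.0105). The called genes thus include genes known to promote and to restrain the pathway. Of 28 other NF-kB target genes tested, JUNB alone was called, and 4 with the block, 2 higher and 2 lower. JUNB, an AP-1 transcription factor gene that shares exon positions with HOOK2 on the opposite strand, fell by 0.65 (adjusted p 0.0121).

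Of 24 other ligand genes tested, 3 were called, 2 higher and 1 lower, and 5 with the block, 3 higher and 2 lower. CXCL10, an interferon-inducible chemokine that attracts T cells, fell by 1.28 (adjusted p 0.0117), from 10.7, 8.79 and 9.51 CPM to 5.23, 3.49 and 3.23 CPM. TSLP, an epithelial cytokine, rose by 1.24 (adjusted p 0.0341), and TNFSF9, a ligand that costimulates T cells, rose by 0.65 (adjusted p 0.0358). Of 32 other receptor genes tested, 2 were called, both higher, whereas with the block 6 were called, 3 higher and 3 lower. IL20RB, a receptor chain of interleukin 10 family cytokines that shares exons with NCK1, rose by 1.32 (adjusted p 0.0105). CSF1R, the receptor for CSF1, rose by 1.19 (adjusted p 0.0117), from 8.31, 7.77 and 5.66 CPM to 13.1, 16.2 and 20.3 CPM. CSF1R is also on the leukocyte marker list, whose other members included PTPRC at 0. Of 24 JAK-STAT genes tested, 0 were called in edgeR, 5 had an unadjusted p under 0.05, DESeq2 called 0, and the block fit called PTPN6, a phosphatase gene, as lower.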

How the data were processed

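For 3 Control and 3 6j libraries, the authors deposited a table of raw whole-number counts, 1 row per gene. Per the labels, mRNA was enriched with oligo(dT) beads, and the submitters' processing notes name HISAT2, StringTie and GRCh38 without versions or roles. Annotation, strandedness and rounding are not given in the sources used here. No column was left out.

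edgeR 4.0.16 (R 4.3.3) removed low rows by filterByExpr (minimum count 10, minimum total 15), computed TMM factors and fitted robust quasi-likelihood models over 15957 rows. Standard errors come from the F statistic, and log2 CPM used a prior count of 2. DESeq2 1.42.0 was the alternative. Coordinates and exon lengths are from GENCODE version 29, promoters from RefSeq. Scripts were tested on simulated data.

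The members and lists were chosen with earlier results of these data known. All members were described, with full values for those that passed the adjusted p in either fit, did not overlap, or were IL6, TNF, CXCL8, IL21R, PTGS2 or NFKBIA. Called genes of other lists were named, up to 3 by smallest adjusted p.

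Deviations from the group means correlated at 0.171, 0.18 and 0.312 for equal replicate numbers and −0.231 to 0.0795 otherwise, so the numbers were taken to pair the libraries. Totals of 31533403 to 38018349 set the precision. Floors cover counting error only.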

Additional observations from a re-analysis of the deposited data

How the results depend on the processing

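With the replicate block, the rows called over the whole table went from 574 to 1033, called members from 2 to 4, members past the adjusted p from 3 to 13 and other pathway genes called from 9 to 19. DESeq2 called 4 members, with 6 past the adjusted p. DESeq2 with the block, added after seeing the data, gave 875 rows, 4 members, 10 past the adjusted p and 14 pathway genes. The adjusted p alone passed 1462 rows and 15 pathway genes. Leaving out 1 library gave 186 (without Control replicate 1) to 772 rows (without 6j replicate 1), with 193 without 6j replicate 2 and 379 without Control replicate 3. It gave 0 to 4 called members, 0 to 6 past the adjusted p and 1 to 14 pathway genes. These counts were lowest without Control replicate 1 or 6j replicate 2 and highest without 6j replicate 1. In each of these fits, 10 members had an unadjusted p under 0.05. The cause of the spread in the counts was not tested. Other normalizations and filters kept each count within 1.5 times. Of 501 alternative fold changes of single members, 467 kept direction and stayed called or not called. A member not called counted as kept even where its adjusted p alone passed, as for LIF with the block (0.0296). Of the rest, 17 changed sign and 10 became called. The 7 that lost the call were all of IL21R and NFKBIZ, the called members. The sign turned when 1 library was left out for IL6 (−0.46 to 0.19), IL32 (−0.60 to 0.10), TNF (−0.26 to 0.17), CXCL8 (−1.10 to 0.10), CXCL16 (−0.11 to 0.33), IL10RB (−0.059 to 0.062), TNIP1 (−0.045 to 0.14) and SOCS3 (−0.12 to 0.22), on the log2 scale. SOCS3 also turned to 0.015 with the block in edgeR and in DESeq2, and to 0.007 with Ensembl rows only. Genes at a few counts, such as IL1B and ICAM1, were limited by depth. The block fit was not repeated with a library left out.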
